A study of Mus musculus with 6 samples.

Results

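The 52 genes described here are a list of G2 and mitosis genes: the mitotic cyclins with CDK1 and its activators, the mitotic kinases, the spindle checkpoint, the kinetochore, the mitotic kinesins, the proteins of spindle assembly and cytokinesis, the condensins with other chromosome proteins, and 2 transcription factors. They are listed by gene symbol, from known roles, and the list was made with earlier results of these data known. All 52 were among the 23337 genes of the deposited table, and all 52 were among the 13671 genes that were tested because they averaged 10 or more normalized counts over the 6 libraries.

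The sequenced RNA came from basal cell carcinoma (BCC) cells of the ear epidermis of mice. The knockout group (3 libraries) was R26-SmoM2/+ Yapfl/fl K14CreER, and the wild-type group (3 libraries) was R26-SmoM2/+ K14CreER. Both groups carried SmoM2, an activated form of the Hedgehog receptor component Smoothened that drives these tumours, and a tamoxifen-inducible Cre under a Krt14 (K14) promoter, so recombination was limited to keratinocytes that express it, the basal cells of the epidermis and the hair follicle. Both were given tamoxifen at 4 weeks of age, and the labelled stage was 6 weeks after tamoxifen. The mouse strain was not given in the labels, and neither was whether each library came from 1 animal or from a pool. The study's title places YAP, the transcriptional co-activator of the Hippo pathway that binds DNA through TEAD factors, upstream of basal cell carcinoma growth, and the comparison of knockout with wild-type tumour cells addresses which transcripts depend on it.

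Genes of G2 and mitosis are transcribed in a wave late in the cell cycle, after the genes of DNA replication. The MuvB complex, joined by B-MYB (Mybl2) and then by FOXM1, binds many of their promoters at the cell cycle homology element, often with NF-Y bound to CCAAT boxes upstream, and in resting cells the DREAM form of the same complex holds them silent. Most of their transcripts are low in cells that do not divide, so in a tissue their levels are often read as a measure of dividing cells. In bulk RNA fewer cells in G2 and mitosis and less of these RNAs per such cell cannot be told apart.

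The 2 sets of letters named above were common in the members' promoters. RefSeq windows of 250 bases before to 50 bases after the gene start (build GRCm38.p6) were matched for 43 of the 52 members by symbol, giving 46 windows. TTTGAA or TTCGAA, the core letters of the cell cycle homology element, were found on either strand in 35 of the 46 member windows (76.1%), and in 19.2% of all 32851 windows. CCAAT was found on either strand in 35 of the 46 (76.1%), against 37.4% of all windows, and 32 of the 46 (69.6%) held both, against 7.52%. The 48 element matches had a median position 16 bases before the start, and 30 windows (65.2%, against 4.74% of all) held one between 40 bases before and 50 bases after the start. In 18 windows (39.1%, against 0.71% of all) a CCAAT began 25 to 40 bases upstream of an element, a spacing chosen after the positions were seen. Letters of other factors were rare among the members: TTTCCCGC and TTTGGCGC, 2 forms of an E2F site, stood in 1 of 46 windows each (2.17%), against 1.07% and 0.51% of all windows. GGAATG, the letters that TEAD factors bind, stood in 4 of 46 (8.70%), against 14.7%, and TGANTCA, the AP-1 site, in 0 of 46, against 7.81%. TTTGAA and TTCGAA are variants of one element, and matches of different letters were not checked for shared bases.

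**Figure D1:**
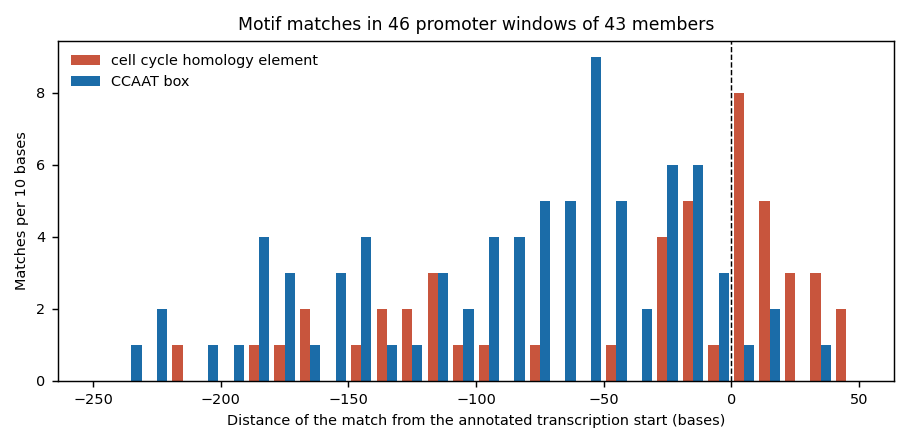
Distance of each match from the gene start in the 46 RefSeq windows of 43 members (x axis, bases, negative before the start; y axis, number of matches in 10-base bins). The 48 matches of the cell cycle homology element had a median position of -16, and the 80 CCAAT matches a median of -69.5.

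Of the 43 members 15 held the spacing, and in 8 of these both sets of letters lay within the last 120 bases before the RefSeq start. Those 120 bases are printed for 6 of the 8, picked for the spacing and for different roles, so their likeness to each other comes from that choice: the kinase Cdk1, the ubiquitin ligase activator Cdc20, the ubiquitin-conjugating enzyme Ube2c, the checkpoint protein Bub3, the kinesin Kif11 and the DNA topoisomerase Top2a. Capitals mark CCAAT (on the other strand, ATTGG), the element TTTGAA (on the other strand, TTCAAA) and its variant TTCGAA. Each sequence runs 5′ to 3′ toward the RefSeq start. Starts in GENCODE M21, the source of the gene coordinates given below, differ for some of these genes. That of Bub3 (131560222) lies upstream of its whole printed stretch, and those of Cdk1, Cdc20 and Ube2c lie inside theirs.
Cdk1, chr10:69352913-69353032, minus strand: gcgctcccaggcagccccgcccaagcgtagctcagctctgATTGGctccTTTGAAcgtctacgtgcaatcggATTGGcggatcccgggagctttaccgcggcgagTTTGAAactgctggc
Cdc20, chr4:118437344-118437463, minus strand: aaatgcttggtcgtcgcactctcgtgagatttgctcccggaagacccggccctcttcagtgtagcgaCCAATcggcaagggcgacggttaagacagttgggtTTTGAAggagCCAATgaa
Ube2c, chr2:164769809-164769928, plus strand: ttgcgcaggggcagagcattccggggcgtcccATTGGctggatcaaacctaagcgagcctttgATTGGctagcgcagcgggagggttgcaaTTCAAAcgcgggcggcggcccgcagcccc
Bub3, chr7:131560250-131560369, plus strand: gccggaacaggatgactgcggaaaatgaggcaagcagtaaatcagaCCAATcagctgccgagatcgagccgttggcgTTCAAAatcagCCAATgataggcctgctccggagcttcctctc
Kif11, chr19:37376262-37376381, plus strand: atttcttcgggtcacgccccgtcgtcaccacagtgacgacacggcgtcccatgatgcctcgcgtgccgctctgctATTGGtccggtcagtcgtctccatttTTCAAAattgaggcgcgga
Top2a, chr11:99024190-99024309, minus strand: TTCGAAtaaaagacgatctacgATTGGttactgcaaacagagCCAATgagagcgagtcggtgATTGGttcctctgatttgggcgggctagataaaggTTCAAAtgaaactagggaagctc
The CCAAT at that spacing began 33 bases upstream of the element in Cdk1, 35 in Cdc20, 28 in Ube2c, 31 in Bub3, 26 in Kif11 and 35 in Top2a. A match describes the letters only. Members were also split by the element alone (TTTGAA or TTCGAA anywhere in a window), whatever the spacing. In the comparison of knockout with wild-type libraries described next, the median log2 difference (knockout minus wild type) was -0.26 over the 32 members with the element. It was -0.31 over the 11 members without the element.

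Knockout library 3 and wild-type library 3 held 15572640 and 15405490 reads, against 22836259 to 25260431 in the other 4 libraries. Yap1 had 591, 773 and 1764 normalized counts in knockout libraries 1, 2 and 3, against 5765, 6004 and 5573 in wild-type libraries 1, 2 and 3, so knockout library 3 kept the most Yap1 of the knockout libraries. Codes in the labels begin with DM22 for libraries 1 and 2 of both groups and with DM24 for library 3 of both groups. Knockout library 3 and wild-type library 3 stood apart from the other 4 in Xist, a transcript of the inactive X chromosome (58654 and 59594 normalized counts, against 8.62 to 15.1), and in Ddx3y, a Y-linked gene (0 in both, against 3202 to 3426), so the code series also differs in these sex-linked transcripts. Basal keratinocyte markers summed to 680010 to 712507 normalized counts in knockout libraries and 598625 to 831737 in wild-type libraries. Single markers moved in opposite directions within that sum. Krt14 had 89190, 93140 and 187300 in knockout libraries 1, 2 and 3, against 122100, 152000 and 130900 in wild-type libraries. Krt15 had 45340, 39430 and 20190, against 30630, 23640 and 25210. Of the immune markers 2 passed the filter, both of antigen-presenting cells: Cd74 had 268, 524 and 353 normalized counts in knockout libraries 1, 2 and 3, against 420, 325 and 75.4 in wild-type libraries, and H2-Aa had 55.3, 123 and 93.6, against 88.3, 96.7 and 16.9. The pan-leukocyte marker Ptprc lay between 0 and 3.36. Of the endothelial markers Pecam1 (25.9 to 83.2 over the 6 libraries) and Vwf (up to 65.1) passed, and Emcn was at 0 in all.

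Most of the 52 genes were lower in the knockout libraries, by a small amount. The log2 difference, taken on log2(normalized count + 1) as knockout minus wild type, was below 0 for 50 of 52 members, against 51.0% of all 13671 genes tested. Its median over the members was -0.28, a difference of -17.4%, and the quartiles were -0.33 and -0.24, against a median over all genes of -0.00. The summed normalized count of the 52 members was 68488, 72595 and 92433 in knockout libraries 1, 2 and 3, against 90722, 87953 and 98715 in wild-type libraries 1, 2 and 3, which gives 77838 ± 12805 and 92464 ± 5588 (SD, n = 3 each). Knockout libraries 1 and 2 were below all wild-type libraries in this sum, and knockout library 3 was above wild-type libraries 1 and 2, so the groups overlapped.

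No member passed the test over all genes. With limma and Benjamini-Hochberg adjustment over the 13671 genes, 0 of 52 members were called lower, and 0% of all genes were called lower. At an unadjusted limma p under 0.05 there were 15 members, against 5.55% of all genes, and the smallest adjusted p of a member was 0.667, for Smc4. With edgeR's quasi-likelihood test on the recovered reads 0 members were called, with 12 at an unadjusted p under 0.05, against 761 of all 13671 genes. DESeq2 on the same reads called 1 member lower, Smc4 (adjusted p = 0.00826), where it called 0.322% of all genes lower. That call was lost when knockout library 1, knockout library 2 or wild-type library 1 was left out (smallest DESeq2 adjusted p of a member 0.0645, 0.198 and 0.328).

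**Figure D2:**
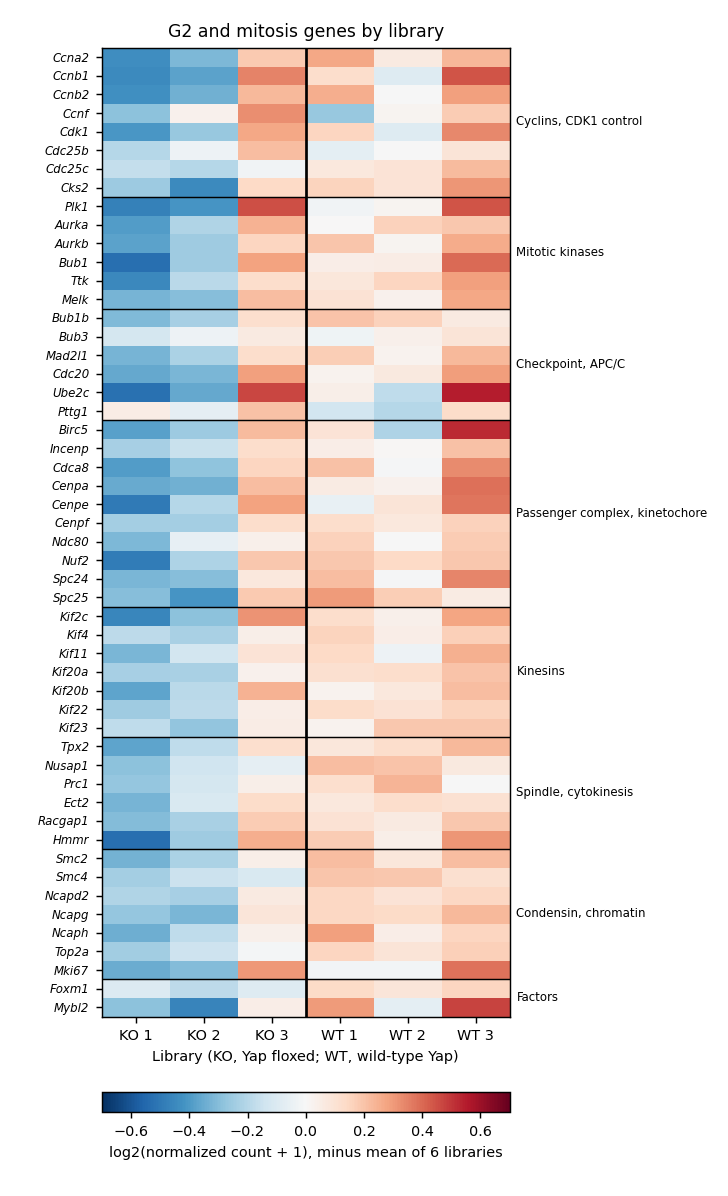
Each row is 1 of the 52 members, ordered by role group, and each column 1 library, knockout libraries 1 to 3 left of wild-type libraries 1 to 3. Colour gives log2(normalized count + 1) minus the gene's mean over the 6 libraries. Knockout libraries 1 and 2 are low in most rows, with medians of -0.32 and -0.23, and knockout library 3 has a median of 0.13.

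The 3 same-numbered pairs of libraries differed in size. The median difference over the members was -0.44 between knockout 1 and wild type 1, -0.29 between knockout 2 and wild type 2, and -0.09 between knockout 3 and wild type 3, where the medians over all genes were -0.00, -0.01 and -0.00. The number of members below 0 was 51, 50 and 41 in pairs 1, 2 and 3, and 41 members (78.8%, against 17.3% of all genes) were below 0 in every pair. Pair 3 gave the difference closest to 0 for 44 of the 52 members, against 37.0% of all genes. Pair 3 is also the pair whose knockout library kept the most Yap1. The part of the remaining Yap1 in the result was not tested.

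**Figure D3:**
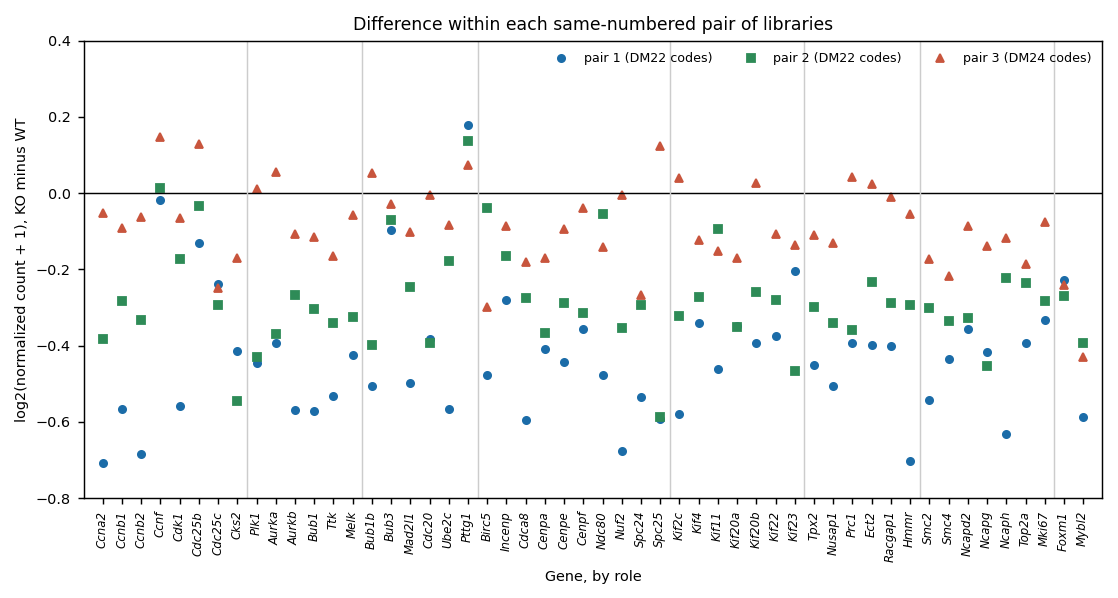
Difference in log2(normalized count + 1), knockout minus wild type, for each member in the 3 same-numbered pairs of libraries. The points of pair 3 lie nearest to 0 for most members, with a median of -0.09, against -0.44 in pair 1 and -0.29 in pair 2.

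Within each group library 3 was the highest for most members. Knockout library 3 was above both other knockout libraries for 52 of 52 members, against 40.4% of all genes, and wild-type library 3 was above both other wild-type libraries for 43 of 52, against 39.0%. Knockout library 1 was the lowest of all 6 libraries for 41 members, and wild-type library 3 the highest of all 6 for 36. Knockout libraries 1 and 2 both lay below all 3 wild-type libraries for 49 of 52 members, against 14.7% of all genes. Knockout library 3 lay below all 3 wild-type libraries for 12 of 52.

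The code series was therefore fitted as a term beside genotype. The DM24 minus DM22 difference was above 0 for all 52 members, against 6834 of all 13671 genes. Its median was 0.27 over the members and -0.00 over all genes. For 24 members it was larger in size than the genotype difference, a count that was not taken over all genes. In limma with Benjamini-Hochberg adjustment, 6 members were higher in DM24, as were 2.68% of all genes. These were Ube2c (0.76 ± 0.11 SE, limma, adjusted p = 0.0243), Plk1 (0.67 ± 0.12, limma, adjusted p = 0.0339), Ccnb1 (0.59 ± 0.12, limma, adjusted p = 0.0427), Birc5 (0.56 ± 0.10, limma, adjusted p = 0.0389), Mki67 (0.52 ± 0.08, limma, adjusted p = 0.0261) and Cenpa (0.45 ± 0.08, limma, adjusted p = 0.0324). DESeq2 called 14 members higher in DM24, and 6.77% of all genes. In limma no member was called with knockout library 1, knockout library 2, knockout library 3 or wild-type library 3 left out, where it called 0.0219% to 0.322% of all genes, and 9 were called without wild-type library 1, where it called 4.61%. Smc4 had the smallest series difference, 0.002.

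With the series as a term DESeq2 called 2 members lower in knockout, Smc4 (adjusted p = 0.00546) and Top2a (adjusted p = 0.0291), where it called 1.48% of all genes lower. Limma with the same term called 0 members and 0% of all genes lower (smallest adjusted p of a member 0.207), with 41 members at an unadjusted p under 0.05, against 11.3% of all genes. In the 4 DM22 libraries alone, 2 knockout against 2 wild type, DESeq2 called 4 members lower, where it called 1.13% of all genes lower: Ccna2 (adjusted p = 0.0172), Bub1b (adjusted p = 0.0180), Smc4 (adjusted p = 0.0205) and Ncapg (adjusted p = 0.0444). The same 4 libraries gave 0 calls with limma, with 46 members at an unadjusted p under 0.05, against 11.8% of all genes. Without knockout library 3, DESeq2 called 20 members lower, where it called 1.13% of all genes lower. That fit set DM22 knockout libraries alone against wild-type libraries of both code series, so genotype and series were not balanced in it. Its median difference over the members was -0.42, against -0.37 with DESeq2 in the 4 DM22 libraries. These 20 were Ccna2, Ccnb2, Aurkb, Bub1b, Cdc20, Cdca8, Cenpf, Nuf2, Spc25, Kif2c, Kif20a, Kif22, Tpx2, Racgap1, Hmmr, Smc2, Smc4, Ncapd2, Ncapg and Top2a. With the replicate number as a block DESeq2 called 0 members, where it called 0.819% of all genes lower. At an unadjusted p under 0.05 that fit had 18 members, against 913 of all 13671 genes. Whether the difference between genotypes itself differed between the code series was tested by an interaction, added after the data were seen, which called 0 members and 0% of all genes with limma (8 members at an unadjusted p under 0.05, against 5.47% of all genes). DESeq2 called 0 members and 0.319% of all genes for it (1 member at an unadjusted p under 0.05, against 3.25% of all genes). The limma interaction estimate was above 0 for 50 of 52 members, against 6934 of all 13671 genes. Its median was 0.27 over the members and 0.005 over all genes. The DM24 series held only 1 knockout and 1 wild-type library. The lack of calls therefore does not show that the difference was alike in both series.

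Other measures moved with library 3. Suprabasal keratinocyte genes (6 measured) summed to 24848, 30590 and 103378 normalized counts in knockout libraries 1, 2 and 3, against 28380, 36436 and 45749 in wild-type libraries. In knockout library 3 Krt1 had 54560 and Krt10 had 30020. Lor went the other way, with 84.7, 151 and 44.3 in knockout libraries 1, 2 and 3. Knockout library 3 was above wild-type library 3 for Krt1, Krt10 and Krtdap, and below it for Lor, Ivl and Sbsn. A list of 19 immediate-early and stress genes that respond to tissue dissociation summed to 617858, 561660 and 161849 in knockout libraries, against 824193, 927132 and 326271 in wild-type libraries, so library 3 of each group was the lowest. Between genotypes all 19 were below 0, with a median log2 difference of -0.62, and in pairs 1, 2 and 3 their medians were -0.21, -0.53 and -1.17. Limma called 0 of the 19 (1 at an unadjusted p under 0.05, against 5.55% of all genes). DESeq2 called 0 without a further term, 8 lower with the replicate block and 9 lower with the series as a term. It called 0.322%, 0.819% and 1.48% of all genes lower in those fits. Fibroblast genes summed to 7188, 6183 and 1615 in knockout libraries, against 5404, 9427 and 3242 in wild-type libraries, most of it Dcn. The collagen genes went the other way in library 3: Col3a1 had 2.67, 48.6 and 163 in knockout libraries, against 0, 1.92 and 367 in wild-type libraries, and Col1a1 had 33.9, 82.4 and 154, against 55.5, 29.7 and 354. Of the 5 fibroblast genes tested, 4 had a DM24 minus DM22 difference above 0. The part of these markers in the members' differences was not tested. Each group held the same mix of code series, so the members' limma log2 differences were unchanged with the series as a term.

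In 12 of 52 members all 3 knockout libraries were below all 3 wild-type libraries, an order that 5.87% of all genes showed, and in 0 members all were above. The 12 were Cdc25c, Kif4, Kif20a, Kif22, Nusap1, Smc2, Smc4, Ncapd2, Ncapg, Ncaph, Top2a and Foxm1. Condensin and chromosome genes made up 6 of them and kinesins 3. Without knockout library 3 the number was 49, an order that 14.7% of all genes then showed, and without wild-type library 2 it was 23, against 12.4% of all genes. With knockout library 3 left out, the knockout libraries were of DM22 alone and the wild-type libraries of both code series.

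Cyclins, CDK1 and its activators (8 members) had 7 members below 0. Their median difference was -0.29, and the medians of pairs 1, 2 and 3 were -0.49, -0.29 and -0.06. Ccna2, cyclin A2, which drives entry into mitosis with CDK1, lies on chromosome 3 (36564865 to 36572150, minus strand, GRCm38 with GENCODE M21). It had 1335, 1452 and 2048 normalized counts in knockout libraries, against 2182, 1891 and 2125 in wild-type libraries. Knockout libraries 1 and 2 were below all wild-type libraries, and knockout library 3 lay among them. The group means were 1612 ± 383 and 2066 ± 154 (SD, n = 3 each), with a log2 difference of -0.38 ± 0.17 SE (limma, adjusted p = 0.909). Exosc9 overlaps 10.4% of its exon bases on the other strand.

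Cdk1 (chromosome 10, 69335146 to 69352938, minus strand) had 1089, 1201 and 1745 normalized counts in knockout libraries, against 1605, 1354 and 1826 in wild-type libraries, and the groups overlapped through knockout library 3. Ccnb1, the B-type cyclin that forms the mitotic kinase with CDK1, had 360, 378 and 625 in knockout libraries, against 534, 461 and 666 in wild-type libraries (log2 difference -0.31 ± 0.25). The related cyclin Ccnb2 had 832, 887 and 1311, against 1337, 1117 and 1370 (-0.36 ± 0.19). In these 3 genes the pattern was the same: knockout libraries 1 and 2 were low and knockout library 3 was near wild type.

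Cdc25b and Cdc25c are phosphatases that activate CDK1, and they differed. Cdc25b, the most abundant member of the group, had 1905, 2129 and 2543 normalized counts in knockout libraries, against 2085, 2179 and 2324 in wild-type libraries, with means of 2192 ± 324 and 2196 ± 121 (SD, n = 3 each) and a log2 difference of -0.01 ± 0.12. Cdc25c had 362, 354 and 400 in knockout libraries, against 427, 434 and 475 in wild-type libraries, without overlap and with like differences in the 3 pairs (-0.24, -0.29 and -0.25). The difference between the 2 genes was not tested. Ccnf, cyclin F, which serves a ubiquitin ligase rather than a kinase, had 458, 570 and 699 in knockout libraries, against 463, 564 and 631 in wild-type libraries (0.05 ± 0.19), with full overlap. Cks2, a small CDK subunit and the least abundant member, had 153, 134 and 201, against 203, 195 and 226 (-0.38 ± 0.19).

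The 6 mitotic kinases were all below 0, with a median of -0.30. Ttk, the MPS1 kinase that starts the spindle checkpoint, had the lowest difference, -0.35 ± 0.16 (limma, adjusted p = 0.915), with 435, 523 and 649 normalized counts in knockout libraries, against 630, 663 and 727 in wild-type libraries. Knockout library 3 overlapped wild-type library 1. Aurkb, the Aurora kinase of the chromosomal passenger complex, was the most abundant, with 791, 865 and 1139 in knockout libraries, against 1174, 1040 and 1228 in wild-type libraries (-0.31 ± 0.15). Aurka, the Aurora kinase of the centrosome, had the difference closest to 0 of the 6, -0.24 ± 0.17, with 438, 495 and 680 in knockout libraries, against 575, 641 and 654 in wild-type libraries, and knockout library 3 was the highest of all 6. Plk1, the polo kinase of mitotic entry, behaved alike, with 501, 522 and 951, against 683, 704 and 943 (-0.29 ± 0.28). Its SE was close to its difference. Bub1 (checkpoint kinase, -0.33 ± 0.22) and Melk (-0.27 ± 0.17) lay between these.

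**Figure D4:**
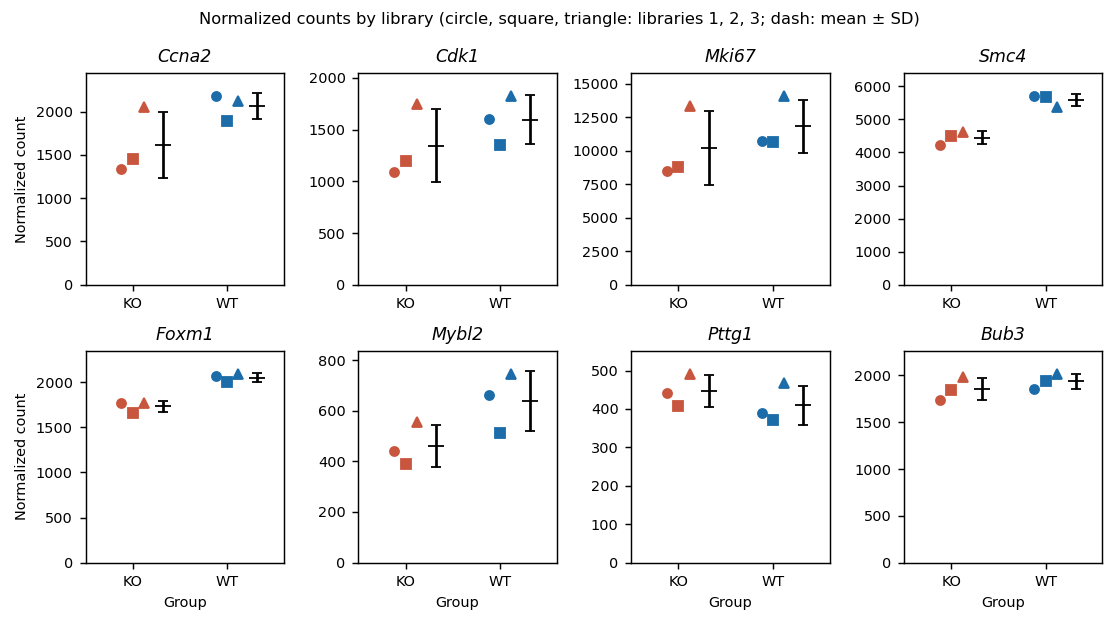
Normalized counts (y axis, from 0) of 8 members in each library, knockout left and wild type right in each panel. Symbols give the library number and the dash with its bar gives the mean ± SD of 3 libraries. Smc4 and Foxm1 show no overlap between groups, Ccna2 and Cdk1 overlap through knockout library 3, and Pttg1 averages 447 in knockout and 410 in wild type.

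Of the 6 members of the spindle checkpoint and of the anaphase-promoting complex pathway, 5 were below 0 and the median was -0.27. Bub1b, the BUBR1 subunit of the checkpoint complex, had 1373, 1444 and 1844 normalized counts in knockout libraries, against 1949, 1903 and 1778 in wild-type libraries, with means of 1553 ± 254 and 1877 ± 88.7 (SD, n = 3 each) and a log2 difference of -0.28 ± 0.12 (limma, adjusted p = 0.904). Here knockout library 3 was above wild-type library 3. Bub3, the partner that holds BUB1 and BUBR1 at kinetochores, had 1737, 1849 and 1979 in knockout libraries, against 1858, 1943 and 2019 in wild-type libraries, a difference of -0.07 ± 0.08. Its values spread little in either group, and its promoter printed above carries both sets of letters.

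Pttg1, securin, the inhibitor of separase, was 1 of the 2 members with a difference above 0. It had 441, 409 and 492 normalized counts in knockout libraries, against 390, 372 and 467 in wild-type libraries, with means of 447 ± 41.8 and 410 ± 50.6 (SD, n = 3 each), a log2 difference of 0.13 ± 0.13 (limma, adjusted p = 0.993) and pair differences of 0.18, 0.14 and 0.07. It was the only member above 0 in all 3 pairs. Cdc20, which activates the anaphase-promoting complex, had 1403, 1435 and 2193 in knockout libraries, against 1829, 1885 and 2198 in wild-type libraries (-0.26 ± 0.19), and in pair 3 its difference was -0.00. Ube2c, the ubiquitin-conjugating enzyme of that complex, had 544, 609 and 1080, against 805, 689 and 1145 (-0.28 ± 0.31), the largest SE of the 52. Tnnc2 overlaps 22.8% of its exon bases on the other strand. Mad2l1, the MAD2 checkpoint protein, differed by -0.28 ± 0.13.

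All 10 chromosomal passenger and kinetochore members were below 0, and their median was -0.29. By pair the medians were -0.48, -0.29 and -0.12. Spc24, a subunit of the NDC80 complex that binds microtubules, had the lowest difference, -0.37 ± 0.15 (limma, adjusted p = 0.892), with 399, 405 and 525 normalized counts in knockout libraries, against 578, 496 and 632 in wild-type libraries. Its partner Spc25 had 364, 336 and 507 in knockout libraries, against 549, 505 and 466 in wild-type libraries (-0.35 ± 0.17), and in pair 3 its difference was 0.12. The other subunits of the complex, Nuf2 and Ndc80, differed by -0.34 ± 0.17 and -0.22 ± 0.12.

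Incenp, the scaffold of the passenger complex, was the most abundant of the 10 and had the smallest difference, -0.18 ± 0.11 (limma, adjusted p = 0.966), with 1902, 2010 and 2430 normalized counts in knockout libraries, against 2312, 2251 and 2582 in wild-type libraries. Birc5, the survivin subunit, had 721, 786 and 1095 in knockout libraries, against 1004, 808 and 1347 in wild-type libraries (-0.27 ± 0.23), with a pair 2 difference of only -0.04. Cdca8, the borealin subunit, differed by -0.35 ± 0.17. The centromeric histone Cenpa (-0.31 ± 0.19), the kinesin-like motor Cenpe (-0.27 ± 0.22) and Cenpf (-0.24 ± 0.11) completed the group.

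The 7 kinesins were all below 0, with a median of -0.25, and 3 of them did not overlap between the groups. Kif20a, a motor of the central spindle, had 1107, 1112 and 1328 normalized counts in knockout libraries, against 1410, 1418 and 1493 in wild-type libraries, with means of 1182 ± 126 and 1440 ± 45.9 (SD, n = 3 each) and a log2 difference of -0.29 ± 0.09 (limma, adjusted p = 0.798). All 3 knockout libraries were below all wild-type libraries, and Cdc23 overlaps 31.8% of its exon bases on the other strand. Kif4, the chromosome-bound kinesin, had 856, 833 and 1003 in knockout libraries, against 1084, 1006 and 1093 in wild-type libraries (-0.25 ± 0.10), where knockout library 3 was just below wild-type library 2, and Pdzd11 overlaps 15.1% of its exon bases. Kif11, the bipolar motor that pushes spindle poles apart, was the most abundant, with 1733, 1979 and 2315, against 2387, 2111 and 2571 (-0.24 ± 0.13). Kif20b was closest to 0 at -0.21 ± 0.16, with 710, 805 and 1084, against 932, 964 and 1064. Kif2c, which takes microtubules apart at centromeres, differed by -0.29 ± 0.21, Kif22 by -0.25 ± 0.10 and Kif23, of the central spindle, by -0.27 ± 0.11.

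The 6 members of spindle assembly and cytokinesis had a median of -0.26, all below 0. Hmmr, a spindle-pole protein, had the lowest, -0.35 ± 0.20 (limma, adjusted p = 0.946), with 539, 653 and 926 normalized counts in knockout libraries, against 878, 800 and 961 in wild-type libraries, overlapping through knockout library 3. Nusap1, which bundles spindle microtubules, had 993, 1100 and 1162 in knockout libraries, against 1410, 1393 and 1273 in wild-type libraries (-0.33 ± 0.09), without overlap. Prc1, which cross-links the central spindle, had 1717, 1908 and 2133, against 2253, 2447 and 2072 (-0.24 ± 0.11), so wild-type library 3 was its lowest wild-type value as in Nusap1, and Rccd1 overlaps 21.8% of its exon bases on the other strand. Racgap1 and Ect2 together activate RhoA at the cleavage furrow. Racgap1 had 1739, 1833 and 2430 in knockout libraries, against 2298, 2239 and 2448 in wild-type libraries (-0.23 ± 0.14), and Ect2 had 1059, 1229 and 1450, against 1397, 1445 and 1425 (-0.20 ± 0.12). Tpx2, the activator of Aurora A on the spindle, differed by -0.29 ± 0.13.

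Condensin and chromosome genes showed the most separation between groups: 6 of 7 did not overlap, all 7 were below 0, the median was -0.32 and the pair medians were -0.42, -0.30 and -0.14. Smc4, an ATPase subunit of both condensins, lies on chromosome 3 (69004738 to 69034623, plus strand). It had 4225, 4497 and 4629 normalized counts in knockout libraries, against 5711, 5675 and 5377 in wild-type libraries. The highest knockout library was well below the lowest wild-type library. The means were 4450 ± 206 and 5588 ± 184 (SD, n = 3 each), with a log2 difference of -0.33 ± 0.07 (limma, adjusted p = 0.667). Its partner ATPase Smc2 had 1951, 2100 and 2525 in knockout libraries, against 2841, 2586 and 2846 in wild-type libraries (-0.34 ± 0.11, limma, adjusted p = 0.806).

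The condensin I subunits followed the ATPases. Ncapd2 had 4091, 4025 and 4939 normalized counts in knockout libraries, against 5238, 5054 and 5244 in wild-type libraries (-0.26 ± 0.10). Ncapg had 1044, 1012 and 1340, against 1393, 1386 and 1475 (-0.34 ± 0.12), and Lcorl overlaps 20.8% of its exon bases on the other strand. Ncaph had 883, 989 and 1146, against 1368, 1155 and 1242 (-0.32 ± 0.12), with knockout library 3 and wild-type library 2 only a few counts apart.

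Top2a, the topoisomerase that untangles sister chromatids (chromosome 11, 98992943 to 99024189, minus strand), had 6929, 7423 and 8119 normalized counts in knockout libraries, against 9104, 8734 and 9236 in wild-type libraries. The groups did not overlap, with means of 7490 ± 598 and 9024 ± 260 (SD, n = 3 each) and a log2 difference of -0.27 ± 0.08 (limma, adjusted p = 0.750). Mki67, the Ki-67 protein that coats mitotic chromosomes and marks cycling cells, was the most abundant member and the exception in this group. It had 8499, 8777 and 13375 in knockout libraries, against 10699, 10670 and 14106 in wild-type libraries, with means of 10217 ± 2739 and 11825 ± 1976 (SD, n = 3 each) and a log2 difference of -0.23 ± 0.21. In each group library 3 was far above the other 2.

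The 2 transcription factors of the mitotic wave were both below 0 in every pair. Mybl2, B-MYB (chromosome 2, 163054687 to 163084688, plus strand), had the lowest difference of all 52 members, with 440, 390 and 554 normalized counts in knockout libraries, against 661, 512 and 747 in wild-type libraries. Knockout library 3 overlapped wild-type library 2. The means were 461 ± 84.0 and 640 ± 119 (SD, n = 3 each), with a log2 difference of -0.47 ± 0.19 (limma, adjusted p = 0.885) and pair differences of -0.59, -0.39 and -0.43. Foxm1 (chromosome 6, 128362967 to 128376146, plus strand) had 1767, 1659 and 1773 in knockout libraries, against 2067, 1999 and 2097 in wild-type libraries, without overlap. Its means were 1733 ± 64.2 and 2054 ± 49.9 (SD, n = 3 each), its log2 difference was -0.25 ± 0.06 (limma, adjusted p = 0.722), and its pair differences were -0.23, -0.27 and -0.24. In both genes pair 3 differed about as much as pair 2, whereas the medians over the 52 members were -0.09 in pair 3 and -0.29 in pair 2.

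The members also moved together from library to library within a group. Over the 1326 pairs of members, the correlation of their deviations from the group means across the 6 libraries had a median of 0.86, and 99.3% were above 0. The libraries are the same for every gene pair, so a library that is high for many members raises all of these values. Kif2c, Racgap1 and Melk were the most typical, with medians of 0.95, 0.95 and 0.94 to the other members. Smc4 (0.42), Nusap1 (0.45), Foxm1 (0.47) and Prc1 (0.49) were the least. These 4 genes had the smallest differences between the code series, from 0.002 in Smc4 to 0.05 in Foxm1. Levels per kilobase of annotated exon, the union over transcripts, averaged 103 normalized counts for Mad2l1, the lowest, and 1582 for Top2a, the highest, with a median of 327 over the members.

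The other genes of the pathway were given by lists that share no gene with the 52. Of 64 other mitosis genes, 61 were below 0 (95.3%), and their median was -0.25. In pairs 1, 2 and 3 the medians were -0.38, -0.27 and -0.11. Limma called 0 of the 64 (16 at an unadjusted p under 0.05, against 5.55% of all genes). The lowest was Cenpm, a protein of the inner kinetochore, with 202, 181 and 223 normalized counts in knockout libraries, against 286, 282 and 287 in wild-type libraries (-0.50 ± 0.12, limma, adjusted p = 0.722), followed by Cenph (-0.42 ± 0.15). The highest was Cenpt, of the same kinetochore layer, with 772, 821 and 937 in knockout libraries, against 710, 734 and 724 in wild-type libraries (0.22 ± 0.09), followed by Zwint (0.08 ± 0.10). The list for the anaphase-promoting complex held its subunits, which are present through much of the cell cycle, with Fzr1 and Ube2s, which act with it. Its 16 genes had a median of -0.01 with 9 below 0. The 17 genes of MuvB, DREAM and E2F had a median of -0.11 with 11 below 0, with E2f1 at -0.38 ± 0.11 and E2f3 at 0.27 ± 0.10, and the 3 NF-Y subunits a median of -0.07 with 2 below 0.

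S phase genes, which act in DNA replication, were set beside the members as the other wave of the cell cycle. All 40 were below 0, with a median of -0.30, and limma called 0 (29 at an unadjusted p under 0.05, against 5.55% of all genes). Their pair medians were -0.29, -0.35 and -0.24, so pair 3 was nearer to the others than it was in the members. Their values centred on each gene's mean had medians of -0.10, -0.20 and -0.13 in knockout libraries, against 0.18, 0.16 and 0.09 in wild-type libraries, and 30 of 40 had all knockout libraries below all wild-type libraries, against 5.87% of all genes. The members had medians of -0.32, -0.23 and 0.13 in knockout libraries, against 0.12, 0.06 and 0.22 in wild-type libraries. Knockout library 3 was thus above 0 for the members, as were all wild-type libraries, and below 0 for the S phase genes. Against wild-type library 3, of the same code series, its median difference was -0.09 for the members and -0.24 for the S phase genes. The difference between the lists was not tested.

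**Figure D5:**
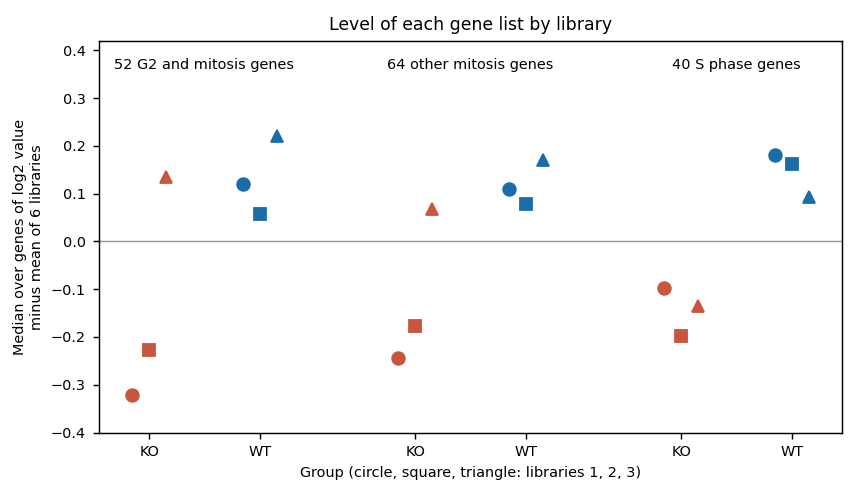
Median of log2(normalized count + 1) centred on each gene's mean over the 6 libraries (y axis), for the 52 members, 64 other mitosis genes and 40 S phase genes, with knockout libraries left of wild-type libraries. Knockout library 3 stands at 0.13 for the members and at -0.13 for the S phase genes.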

How the data were processed

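Per the labels' protocols, a Qiagen RNeasy Plus kit was used for RNA and a TruSeq RNA v2 kit for libraries. That kit does not mark strand, so reads of overlapping genes on opposite strands cannot be told apart. Whether such reads went to one gene, both or neither depends on the counting. Exons of 10 members overlap another gene of the table. The submitters' processing notes name STAR 2.5, DESeq2 1.18.1 and the build mm10 (GRCm38). Not given in the sources used here are the counting tool, the annotation, the strand setting and any filter. The growth protocol names 2 times after tamoxifen, and the stage label of every library gives 6 weeks.

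The authors deposited a signal: read counts divided by 1 size factor per library. Dividing each library's values by its smallest step gave whole reads for 100% of them (tolerance 0.001 reads). A count of 0 allows up to 3 reads, which is 2.47 to 3.90 normalized counts, for counting error alone. Genes averaging 10 or more normalized counts entered limma 3.58.1 (R 4.3.3, two-sided, with trend and robust options) as log2(normalized count + 1), with Benjamini-Hochberg adjustment at 0.05 over all 13671 genes. This scale understates changes of low genes. On the recovered reads, edgeR 4.0.16 (quasi-likelihood) and DESeq2 1.42.0 were run. Since the labels name no separate animals, the spread behind each p-value is that between libraries and may be technical. An exact permutation test of 3 against 3 cannot go below 0.1 and was not run. The fits were tested on simulated data.

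Libraries were paired by the numbers in the labels. Deviations from group means correlated by 0.333, 0.327 and 0.694 between same-numbered libraries. Knockout 1 correlated more with wild type 2 (0.505), so the pairing of libraries 1 and 2 rests on the labels alone. Alternatives were a replicate block, the code series as a term, the DM22 libraries alone, another pseudocount, filter and scaling, and each library left out. Fits that interact genotype with series, and DESeq2 in the DM22 libraries, were added after the data were seen. The labels do not explain the codes.

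Members, gene lists and role groups were chosen with earlier results of these data known. In each role group the members with the lowest and highest log2 difference and the highest mean are given in every library, and others were named after their values were seen.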

Additional observations from a re-analysis of the deposited data

How the results depend on the processing

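The count of members called lower was 0 in limma (0% of all genes) and 1 with DESeq2 (0.322%). It was 2 with DESeq2 and the series as a term (1.48%), and 4 with DESeq2 in the DM22 libraries (1.13%). With DESeq2 it ran from 0 to 20 with a library left out. The 20 were reached without knockout library 3 (1.13% of all genes), where genotype and series were not balanced. Shares for the other libraries left out are not given here. With the replicate block limma, edgeR and DESeq2 each called 0. Members without overlap between groups, 12 in all 6 libraries, numbered 6 after quantile scaling (11.0% of all genes, either direction), 50 in the DM22 libraries alone (49 lower and 1 higher, against 44.7% of all genes) and 12 to 49 with a library left out (13.9% to 27.7%). Members higher in DM24, 6 in limma, numbered 14 with DESeq2 (6.77% of all genes) and 0 to 9 with a library left out (0.0219% to 4.61%).
The median over the 17 MuvB, DREAM and E2F genes was -0.079 with DESeq2 in the DM22 libraries, and that over the anaphase-promoting complex ran from -0.051 to 0.014 with a library left out. Of the named members 2 turned direction, both near 0: Cdc25b was at 0.0022 with edgeR, 0.00061 with DESeq2, 0.0084 after quantile scaling and -0.12 to 0.085 with a library left out, and Ccnf was at -0.0017 in the DM22 libraries and -0.10 to 0.20 with a library left out. The median over the 52 members stayed between -0.42 and -0.18 with a library left out. The cause of these shifts was not tested. With 3 libraries a group, library 3 of both groups from another code series, and no stated animals, small differences of this size were not resolved in limma.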

Other observations

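Outside the 52 members, 58 tested genes had a CCAAT starting 25 to 40 bases upstream of TTTGAA or TTCGAA in their RefSeq window. Their median log2 difference was -0.01 and 32 of them (55.2%) were below 0. The 9540 tested genes without that spacing had a median of 0.00, with 50.9% below 0.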
